A study of Mus musculus with 6 samples.

Results

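The transcripts of 9 genes of SOCS feedback and early STAT3 response were followed in mouse embryonic stem cells (mESCs) cultured with leukemia inhibitory factor (LIF), with oncostatin M (OSM) or with neither cytokine. The 9 genes were chosen by symbol, as Socs1, Socs2, Socs3, Cish, Pim1, Pim3, Bcl3, Junb and Gadd45g, out of 28584 gene symbols in the expression table. All 9 are in the table, and 9 of 9 were among the 18556 genes with at least 1 TPM (transcript abundance, scaled per transcript length and to the same total in each library) in at least 2 libraries, which is the set that was tested. The cells were 1 mESC line from a C57BL/6 × 129S6 blastocyst, so differences between lines are not covered. Cells of every group had first grown for 5 passages with serum and LIF on MEF feeders inactivated with mitomycin C. They were then moved to a basic medium of knockout DMEM with 20% FBS alone (-LIF-ESCs), with LIF at 1000 U/mL (LIF-ESCs) or with OSM at 10 ng/mL (OSM-ESCs), and RNA was taken after 10 passages in these media. Each group had 2 libraries, given as biological replicates. Neither the labels nor the study's methods say whether feeder cells were still present in the harvested cultures or whether replicates were cultured apart from the start, so p-values measure the spread between these libraries.

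LIF and OSM belong to the IL-6 family of cytokines. They bind receptors that pair gp130 (Il6st) with the LIF receptor or the OSM receptor, and the JAK kinases held by these receptors phosphorylate STAT3, which enters the nucleus and drives transcription. Among its quickest targets are suppressors of cytokine signaling (SOCS proteins), which bind the receptors or the JAKs and shut the signal down, so their transcripts act as a readout of the pathway and as its brake. In mESCs kept in serum, LIF acting through STAT3 is what holds back differentiation.

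STAT dimers bind palindromes of the form TTCNNNGAA, and the promoter sequences are shown here because the genes are known as STAT targets and several moved together. RefSeq windows of 300 bases (250 before to 50 after the start, GRCm38.p6) were given for 8 of the 9 genes, in 9 windows, and Socs2 was not matched. TTCNNNGAA, which reads the same on both strands, was present in windows of 2 genes, Socs3 and Cish, against 8.3% of all 32851 windows and 6.72% of the 14215 windows of tested genes. Its subset TTCCNGGAA, found in 1.15% of all windows, was present in the Cish window. A match is a run of letters and not a measured binding site, and its absence from the other windows says only that these letters are not there. The stretches below are upstream of the start for the brake of the pathway that matches (Socs3), a SOCS gene that moved the opposite way (Socs1), the most abundant gene with either cytokine (Pim1) and the gene with the largest rise from LIF to OSM (Gadd45g), with capitals marking TTCNNNGAA.
Socs3: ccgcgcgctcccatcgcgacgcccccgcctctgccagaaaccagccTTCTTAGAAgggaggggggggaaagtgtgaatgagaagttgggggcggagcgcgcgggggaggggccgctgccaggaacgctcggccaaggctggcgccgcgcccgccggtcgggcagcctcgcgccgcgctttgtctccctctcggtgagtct
Socs1: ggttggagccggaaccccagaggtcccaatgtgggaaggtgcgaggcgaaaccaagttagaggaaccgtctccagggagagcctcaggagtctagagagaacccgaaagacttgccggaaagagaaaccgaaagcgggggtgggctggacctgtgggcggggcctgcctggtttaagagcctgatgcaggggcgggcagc
Pim1: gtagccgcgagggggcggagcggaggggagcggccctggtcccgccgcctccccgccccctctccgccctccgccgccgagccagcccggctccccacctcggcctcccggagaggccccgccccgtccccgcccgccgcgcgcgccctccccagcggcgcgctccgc
Gadd45g: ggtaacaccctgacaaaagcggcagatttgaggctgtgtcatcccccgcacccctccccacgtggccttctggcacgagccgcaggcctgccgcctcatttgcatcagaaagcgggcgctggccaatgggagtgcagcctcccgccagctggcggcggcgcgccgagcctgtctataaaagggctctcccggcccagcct
The Socs3 stretch is chr11:117969367-117969566 on the minus strand, and its match, TTCTTAGAA, starts at base -154 counted from the RefSeq start. In the GENCODE M21 annotation 77 of its 200 bases lie in an exon of a noncoding Socs3 transcript and 0 in an exon of a coding transcript. The Socs1 stretch is chr16:10785537-10785736 on the minus strand, the Pim1 stretch chr17:29490585-29490752 on the plus strand and the Gadd45g stretch chr13:51846475-51846674 on the plus strand, and none of these bases lies in an exon of its gene. The Pim1 stretch ends at base -33, just before the GENCODE gene begins. For Cish only the 30 bases around its matches are shown, all of them in an exon of a coding Cish transcript, chr9:107296654-107296683 on the plus strand, with the matches starting at bases 1 and 12.
Cish: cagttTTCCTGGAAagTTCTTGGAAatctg

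The libraries held between 20712941 and 28994419 reads, as recovered from the TPM values and exon lengths, and 95.4% of the matched values came out whole within 0.02 of a read. Changes were tested with limma on log2(TPM + 1), a scale that understates the fold change of genes with a low TPM, with Benjamini-Hochberg adjustment over all tested genes. With 2 libraries a group, the smallest two-sided p of an exact permutation test is 0.333, and the p-values come from the model, which had 3 residual degrees of freedom. The median log2 fold change of all tested genes against -LIF-ESCs was 0.165 with LIF and 0.182 with OSM, and 0.012 and 0.013 after rescaling by the median ratio. The summed TPM of 7 ESC markers was 5030 and 5010 without cytokine, 6280 and 6210 with LIF and 5880 in each OSM library. ESC marker transcripts were thus present in all groups, with Dppa5a the largest part at 2940, 3060 and 2900 TPM. Without cytokine Esrrb (96.6 against 263 and 222 TPM) and Sox2 (339 against 557 and 495 TPM) were lower. Of the 7, 6 had positive log2 fold changes with LIF and 5 with OSM. By morphology, the study saw only differentiated clones in -LIF-ESCs, and it reported strongly decreased Oct4 and Nanog protein there. From its RNA-seq it described Oct4 (Pou5f1) and Nanog as higher with either cytokine. Pou5f1 was present but lower without cytokine, at 545 ± 8.05 TPM (SD, n = 2), than with LIF (1160 ± 24.7) or OSM (1190 ± 6.62). Nanog RNA went against that description in the values used here. It stood at 433 ± 3.6 TPM without cytokine and was lower with LIF (290 ± 0.838) and with OSM (261 ± 13.2).

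In LIF-ESCs against -LIF-ESCs, transcripts of Socs2, Socs3, Pim1 and Bcl3 rose at least 2-fold and those of Socs1 fell. These 4 of 9 genes called higher stand against 13.3% of all tested genes, and the 1 of 9 called lower against 8.09%, where a call needs an adjusted p under 0.05 together with a 2-fold change. By adjusted p alone, 7 of 9 were higher against 42.2% of all genes and 2 of 9 lower against 25.9%. The median log2 fold change of the 9 genes was 0.84 against 0.165 over all genes. In these bulk samples a change in the share of a cell type and a change in RNA per cell cannot be told apart.

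In OSM-ESCs against -LIF-ESCs, Socs2, Pim1, Bcl3 and Gadd45g rose at least 2-fold and Socs1 fell. The 4 of 9 called higher stand against 14.2% of all genes and the 1 of 9 called lower against 7.86%. By adjusted p alone, 7 of 9 were higher against 42.9% and 1 of 9 lower against 25.4%. The median was 0.63 against 0.182 over all genes. Both comparisons use the same -LIF libraries, so their values are given side by side and the likeness between them is not a result.

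In OSM-ESCs against LIF-ESCs, Gadd45g was higher and Socs3 lower, each by less than 2-fold. At an adjusted p under 0.05 and 2-fold, limma called 0 of 9 genes higher against 0.0323% of all genes and 0 of 9 lower against 0.0485%. By adjusted p alone, 1 of 9 was higher against 0.463% of all genes and 1 of 9 lower against 0.129%. At an unadjusted p under 0.05 there were 5 of 9, against 2838 of the 18556 tested genes, which is the reference for the lists below too. Of the 9 genes, limma's voom on recovered reads also called 0 at 2-fold. The median of the 9 genes was 0 against 0.008 over all genes.

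**Figure D1:**
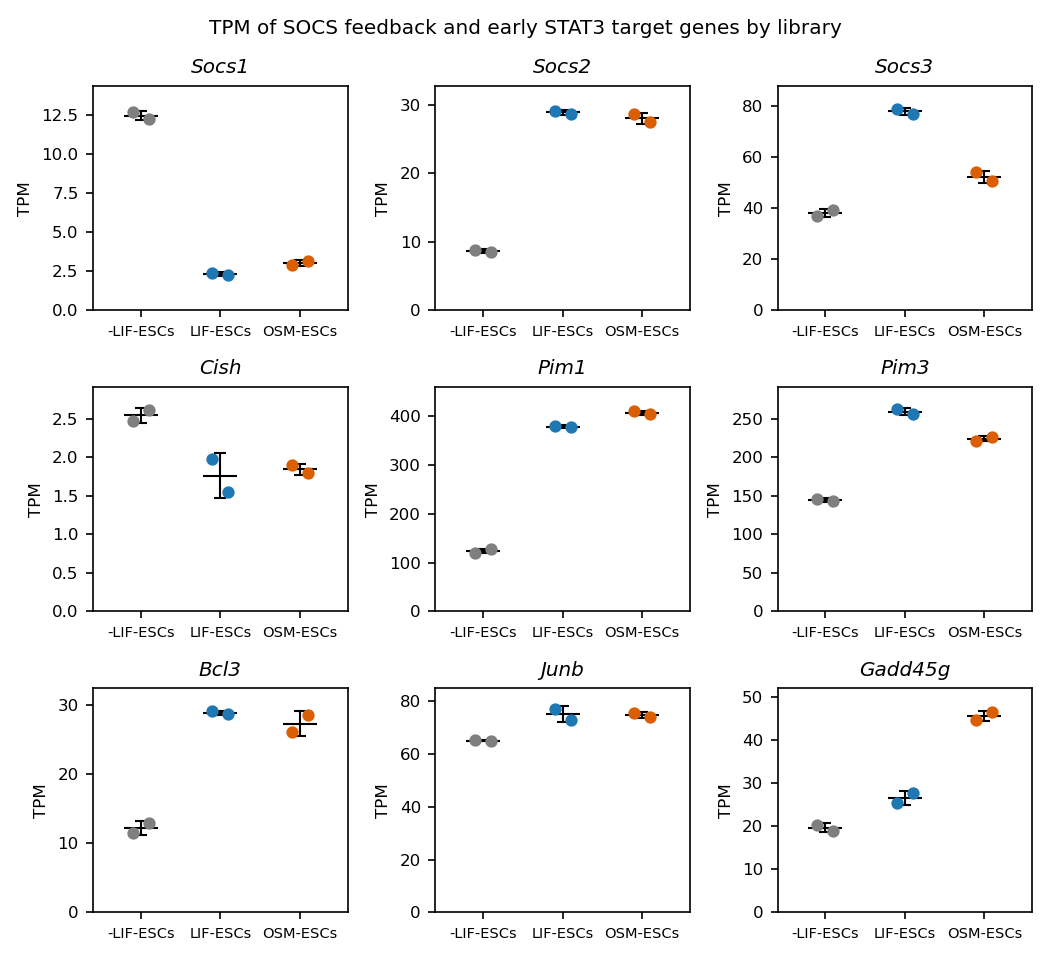
TPM of the 9 genes (vertical axes, linear from 0) in each of the 6 libraries, by culture group, with points for libraries and bars for the mean ± SD of 2 libraries. Socs1 is highest in -LIF-ESCs at 12.5 TPM, Socs3 peaks in LIF-ESCs at 78 TPM and Gadd45g in OSM-ESCs at 45.7 TPM.

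TPM is scaled per length, so levels can be compared between genes. The 9 genes spanned from 1.55 TPM for Cish to 410 TPM for Pim1. In -LIF-ESCs the order from high to low was Pim3, Pim1, Junb, Socs3, Gadd45g, Socs1, Bcl3, Socs2 and Cish, and only Socs1 and Bcl3 overlapped between neighbours. In LIF-ESCs the order was Pim1, Pim3, Socs3, Junb, Socs2, Bcl3, Gadd45g, Socs1 and Cish, with overlap of Socs3 with Junb and of Socs2 with Bcl3. In OSM-ESCs it was Pim1, Pim3, Junb, Socs3, Gadd45g, Socs2, Bcl3, Socs1 and Cish, with overlap of Socs2 with Bcl3. Summed, the 9 genes gave 425 and 430 TPM without cytokine, 887 and 872 TPM with LIF and 865 and 862 TPM with OSM.

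Socs3 (chr11:117966079-117970047, minus strand, GRCm38) encodes the SOCS protein that docks on gp130 itself and is the main brake on LIF-type signaling. It stood at 37.2 and 39.3 TPM in the -LIF libraries, 78.9 and 77.2 TPM in the LIF libraries and 54.1 and 50.6 TPM in the OSM libraries. No 2 groups overlapped, and OSM-ESCs lay between the others. Against -LIF-ESCs the log2 fold change was 1.01 (SE 0.051, limma adjusted p = 4.59e-05) in LIF-ESCs and 0.44 (adjusted p = 0.000841) in OSM-ESCs, or 2.04 and 1.37 times in mean TPM. The LIF value sits just past 2-fold, and that call was lost after median-ratio rescaling (0.84), with voom (0.90), without -LIF-ESCs replicate 1 (0.97) and without LIF-ESCs replicate 1 (0.99). The match to TTCNNNGAA shown above lies in this gene's window.

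Socs1 (chr16:10782240-10785536, minus strand), a SOCS protein that blocks the JAK catalytic site and is best known for restraining interferon signals, went the other way. It read 12.7 and 12.3 TPM in the -LIF libraries, 2.42 and 2.25 TPM with LIF and 2.89 and 3.15 TPM with OSM. Both -LIF libraries lay far above the other 4. The log2 fold change was -2.02 (SE 0.084) in LIF-ESCs and -1.75 in OSM-ESCs, with limma adjusted p of 2.55e-05 and 3.75e-05, and mean TPM was 5.35 and 4.13 times lower. It rests on few reads, 418 and 332 in the -LIF libraries and between 59 and 111 in the others, and the direction held in all 15 alternative settings of both comparisons.

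Socs2 (chr10:95385362-95417180, minus strand), known for damping growth hormone signals through STAT5, was at 8.85 and 8.49 TPM without cytokine, 29.1 and 28.6 TPM with LIF and 28.6 and 27.5 TPM with OSM. The cytokine groups lay above -LIF-ESCs without overlap. The log2 fold changes were 1.63 and 1.59, with limma adjusted p of 1.16e-05 and 1.2e-05. OSM-ESCs and LIF-ESCs differed by -0.04 with a 95% interval from -0.17 to 0.09 (adjusted p = 0.754).

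Cish (chr9:107296026-107302784, plus strand), a SOCS family member known as a STAT5 target, had the lowest level of the 9 genes in each of the 6 libraries. It read 2.48 and 2.61 TPM without cytokine, 1.98 and 1.55 TPM with LIF and 1.90 and 1.80 TPM with OSM. The -LIF libraries were the highest, while LIF-ESCs and OSM-ESCs overlapped. The log2 fold change against -LIF-ESCs was -0.36 (limma adjusted p = 0.046) in LIF-ESCs and -0.32 (adjusted p = 0.0691) in OSM-ESCs, and the first of these passed in 5 of 14 alternative settings. These values rest on 90 to 180 reads per library. Gm17041, an antisense gene that shares 479 exon bases with Cish, stood at 16.2 ± 1.23, 10.7 ± 2.11 and 11.7 ± 1.9 TPM (SD, n = 2) without cytokine, with LIF and with OSM. The strand setting of the read counting is not given in the sources used here and the library kit does not mark strand, so reads of a gene and of its antisense partner cannot be told apart.

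Pim1 (chr17:29490753-29496112, plus strand) and Pim3 (chr15:88862186-88865726, plus strand) encode serine/threonine kinases that are active once made and favor survival and growth. Pim1 stood at 121 and 127 TPM in the -LIF libraries, 380 and 377 TPM with LIF and 410 and 403 TPM with OSM. It was the most abundant of the 9 genes with either cytokine, and -LIF-ESCs lay below without overlap. Its log2 fold change was 1.6 (SE 0.037, limma adjusted p = 5.83e-06) in LIF-ESCs and 1.71 (adjusted p = 4.54e-06) in OSM-ESCs, and mean TPM was 3.05 and 3.28 times that of -LIF-ESCs. The antisense gene Gm26885, which shares 488 exon bases with Pim1, moved with it, from 48 ± 0.543 TPM without cytokine to 164 ± 9.85 with LIF and 189 ± 12.7 with OSM (SD, n = 2), and its part in the Pim1 values was not tested.

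Pim3 read 146 and 143 TPM without cytokine, 262 and 256 TPM with LIF and 221 and 226 TPM with OSM. The groups did not overlap, and OSM-ESCs lay between the others, as for Socs3. The log2 fold changes against -LIF-ESCs were 0.84 and 0.63, with limma adjusted p of 2.08e-05 and 4.6e-05, which leaves Pim3 under 2-fold in both. The ratio of Pim1 to Pim3, chosen after the values were seen, was 0.825 and 0.892 in the -LIF libraries, 1.45 and 1.47 with LIF and 1.85 and 1.78 with OSM, so the more abundant of the pair without cytokine was Pim3 and with cytokine Pim1.

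Bcl3 (chr7:19808462-19822770, minus strand), a nuclear protein of the IκB family that binds NF-κB subunits, read 11.5 and 12.9 TPM without cytokine, 29.0 and 28.6 TPM with LIF and 26.0 and 28.5 TPM with OSM. Both cytokine groups were above -LIF-ESCs. The log2 fold changes were 1.17 and 1.1, with limma adjusted p of 9.82e-05 and 0.000123, and the OSM value dropped under 2-fold, to 0.92, after median-ratio rescaling. Gm16175, an antisense gene with 161 shared exon bases, had log2 fold changes of 1.21 and 1.02, and its part in the Bcl3 values was not tested.

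Junb (chr8:84974484-84978718, minus strand), a subunit of the transcription factor AP-1 and an immediate-early gene, had the smallest log2 fold change in size of the 9 genes against -LIF-ESCs with either cytokine. It read 65.3 and 65.0 TPM without cytokine, 77.2 and 73.0 TPM with LIF and 75.6 and 74.1 TPM with OSM. The -LIF libraries were lowest, and the cytokine groups overlapped. Its log2 fold change was 0.2 in both comparisons with -LIF-ESCs (limma adjusted p = 0.00756 and 0.00832), close to the medians of 0.165 and 0.182 over all genes, and after median-ratio rescaling it was 0.03 (adjusted p = 0.519) and 0.01 (adjusted p = 0.793). Junb shares 173 exon bases with Prdx2 on the opposite strand, which fell by 0.58 and 0.52 on the log2 scale.

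Gadd45g (chr13:51846678-51848468, plus strand) encodes a small stress-response protein that binds a kinase upstream of p38 and JNK, and it is known as an OSM-inducible gene. It read 20.4 and 19.0 TPM without cytokine, 25.4 and 27.7 TPM with LIF and 44.8 and 46.5 TPM with OSM. The groups did not overlap, and OSM-ESCs were the highest. The log2 fold change against -LIF-ESCs was 0.41 (SE 0.064, limma adjusted p = 0.00252) in LIF-ESCs and 1.17 (adjusted p = 5.48e-05) in OSM-ESCs, or 1.35 and 2.32 times in mean TPM. After median-ratio rescaling the OSM value was 0.99, just under 2-fold. Recovered reads were 271 and 207 without cytokine, 280 and 293 with LIF, and 531 and 662 with OSM.

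**Figure D2:**
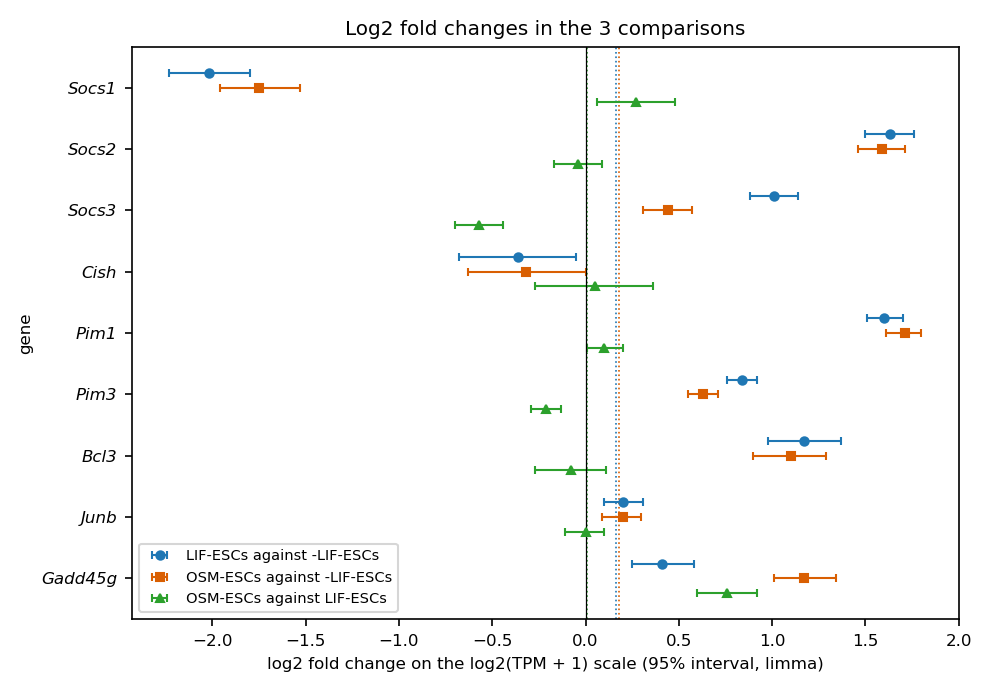
Log2 fold changes on the log2(TPM + 1) scale (horizontal axis) of each gene (vertical axis) in the 3 comparisons, as points with 95% intervals from limma, and dotted lines at the median of all tested genes. Socs1 lies at -2.02 and -1.75 in the comparisons with -LIF-ESCs, and in OSM-ESCs against LIF-ESCs Socs3 (-0.57) and Gadd45g (0.76) lie farthest from 0.

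Between the cytokines, the test of the difference passed for 2 of the 9 genes, and these moved in opposite directions. Socs3 was lower in OSM-ESCs than in LIF-ESCs by a log2 fold change of -0.57 (SE 0.051, 95% interval from -0.7 to -0.44, limma adjusted p = 0.03), or 0.67 times in mean TPM. Gadd45g was higher by 0.76 (SE 0.064, interval from 0.6 to 0.92, adjusted p = 0.0296), or 1.72 times. Each had this direction in all 15 alternative settings but an adjusted p under 0.05 in 6 of them. It was lost in each of the 6 fits that left out a library, with adjusted p of 0.102 to 0.25 for Socs3 and 0.102 to 0.239 for Gadd45g, in the fit of the 2 groups alone, with a replicate block and without a trend of the variance.

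The other 7 genes did not pass in OSM-ESCs against LIF-ESCs. Pim3 came nearest, at -0.21 (interval from -0.29 to -0.13, limma adjusted p = 0.0713). It passed in 1 of 15 alternative settings, limma's voom on recovered reads (adjusted p = 0.000211). Socs1 differed by 0.27 (interval from 0.06 to 0.48, adjusted p = 0.24) and Pim1 by 0.1 (0.01 to 0.2, adjusted p = 0.293). The intervals of Bcl3 (-0.27 to 0.11), Junb (-0.11 to 0.1) and Cish (-0.27 to 0.36) include 0, and a p that misses the threshold does not show that the levels are alike.

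The ratio of Gadd45g to Socs3 within a library was chosen after the values were seen. It was 0.549 and 0.483 without cytokine, 0.322 and 0.359 with LIF and 0.829 and 0.92 with OSM. LIF-ESCs were the lowest and OSM-ESCs the highest, with no overlap. Socs3 set against Stat3, its known activator, gave 1.66 and 1.92 without cytokine, 1.84 and 1.81 with LIF and 1.20 and 1.15 with OSM, a quantity also chosen after the values were seen.

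The SOCS family as a whole (Cish and Socs1 to Socs7) summed to 101 and 103 TPM without cytokine, 175 and 171 TPM with LIF and 155 and 146 TPM with OSM. Socs3 held the largest share in every library, 36.8% and 38.3% without cytokine, 45.2% and 45.1% with LIF and 34.9% and 34.6% with OSM. Socs1 held 12.6% and 12.0% in -LIF-ESCs against 1.31% to 2.15% in the other 4 libraries. Socs2 held 8.75% and 8.27% in -LIF-ESCs and 16.7% to 18.8% in the others. These shares are descriptions, chosen after the values were seen, and carry no test.

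**Figure D3:**
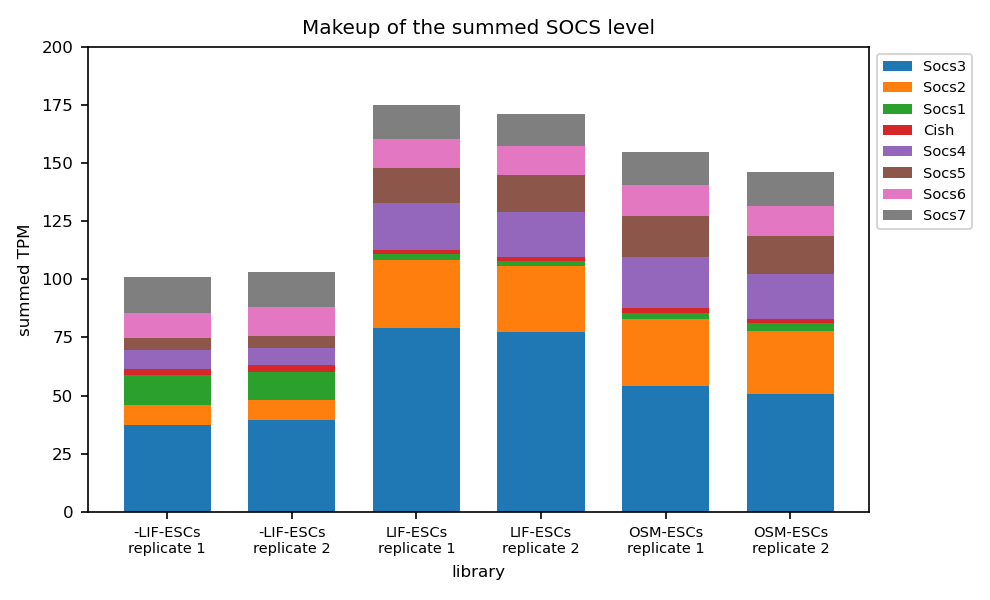
Summed TPM of the 8 SOCS family genes (vertical axis, from 0) in each library (horizontal axis), stacked by gene. The stacks reach 101 and 103 TPM without cytokine, 175 and 171 TPM with LIF and 155 and 146 TPM with OSM, with the Socs3 share smallest in OSM-ESCs and the Socs1 share visible mainly in -LIF-ESCs.

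Relatives of the 9 genes moved in both directions. Against -LIF-ESCs, LIF-ESCs had 5 of 14 relatives called higher and 2 lower, and OSM-ESCs had 4 higher and 2 lower, with medians of 0.02 and 0.09. Of all genes 13.3% were called higher and 8.09% lower with LIF, and 14.2% and 7.86% with OSM, and these shares are the reference for the lists that follow too. Socs4 went from 7.93 ± 0.38 TPM without cytokine to 19.7 ± 0.157 with LIF and 20.8 ± 1.69 with OSM (SD, n = 2). Socs5 went from 5.06 ± 0.16 to 15.7 ± 0.399 and 17 ± 0.879. Both are SOCS proteins better known for acting on EGF receptor signals, and both were called higher with either cytokine.

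The other two Gadd45 genes, stress-response proteins like Gadd45g, moved oppositely against -LIF-ESCs. Gadd45a rose from 47.8 ± 1.63 TPM without cytokine to 210 ± 3.28 with LIF and 210 ± 12.6 with OSM (SD, n = 2). Gadd45b fell from 98.9 ± 1.63 to 12.8 ± 2.34 and 16.2 ± 0.13. Between the cytokines neither passed, with Gadd45a at 0 (limma adjusted p = 0.994) and Gadd45b at 0.33 (adjusted p = 0.275). Whether the 3 Gadd45 genes differ from each other in that comparison was not tested.

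Among the other relatives, Nfkbiz, an IκB family protein like Bcl3, had log2 fold changes of 2.47 and 2.65 against -LIF-ESCs, and Nfkbid of the same family was called higher in LIF-ESCs at 1.09. Jun, an AP-1 subunit like Junb, fell by 1.73 and 1.52, and Jund, the most abundant relative at 274 TPM in -LIF-ESCs, had -0.2 and -0.33. Pim2 had -0.8 and -0.42, the opposite sign to Pim1 and Pim3, and the difference of OSM-ESCs from LIF-ESCs was 0.37 (limma adjusted p = 0.03), which passed in 6 of 15 alternative settings and in none of the 6 fits without a library (adjusted p of 0.11 to 0.25).

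Receptors, JAKs and STATs, which feed these genes, were counted next. Against -LIF-ESCs limma called 3 of 14 higher with LIF and 4 of 14 with OSM and 0 lower with either, 9 higher and 3 lower passed at an adjusted p under 0.05 in each, and medians were 0.41 and 0.6. By adjusted p alone 42.2% and 42.9% of all genes were higher. Lifr, the LIF receptor subunit, rose from 5.34 ± 0.153 TPM to 14.9 ± 0.884 and 13.8 ± 0.941 (SD, n = 2). Osmr, the OSM receptor subunit, rose from 0.141 ± 0.0138 TPM to 6.17 ± 0.146 and 7.56 ± 0.366. As Osmr passed the low-value filter only through the cytokine groups, its part in the count of calls is a description.

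Among the STATs, Stat3 itself went from 21.4 ± 1.41 TPM without cytokine to 42.8 ± 0.266 with LIF and 44.5 ± 0.544 with OSM (SD, n = 2). Its log2 fold changes were 0.97 and 1.02, on either side of 2-fold, and it differed by 0.06 between the cytokines (limma adjusted p = 0.69). It was the most abundant of the 14 genes with either cytokine, while Jak1 (21.9 TPM) was slightly above it without. In OSM-ESCs against LIF-ESCs 0 of the 14 passed limma's adjusted p (4 at an unadjusted p under 0.05), with values from -0.16 to 0.26. Stat4, which serves IL-12, was called higher at 1.12 and 1.06.

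Of 10 other negative regulators of JAK signaling, limma called 2 higher in LIF-ESCs and 1 in OSM-ESCs and 0 lower in either, and by adjusted p alone 6 were higher and 1 lower in each. Cbl, a ubiquitin ligase, had log2 fold changes of 1.16 and 1.35. Pias2, a SUMO ligase of the PIAS family and the most abundant gene of the list with either cytokine (86.3 TPM with LIF), had 1.03 and 0.95.

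Of 17 other known LIF and STAT3 targets 16 were in the table and 15 were tested, and of these 11 were called higher in LIF-ESCs and 10 in OSM-ESCs, with 0 lower and medians of 1.42 and 1.46. All 15 had positive values in both comparisons, where the medians over all genes were positive too (0.165 and 0.182). Since the list was chosen with earlier results of these data known, the count is a description. Pramel7, in the table but under the filter, stood at 0.188, 0.0509 and 0.0193 TPM without cytokine, with LIF and with OSM. The pluripotency factors Klf4 (2.81 in LIF-ESCs and 2.67 in OSM-ESCs), Klf5 (2.2 and 1.99), Tfcp2l1 (1.8 and 1.78) and Gbx2 (3.46 and 3.66) were among those called in both. So were Myc (1.59 and 1.87), the C/EBP factors Cebpb (2.18 and 2.01) and Cebpd (1.42 and 1.46), Vegfa (2.13 and 2.19), Hif1a (1.22 and 1.18) and the survival gene Mcl1 (1.21 and 1.12), the most abundant of the list at 556 TPM with LIF. Birc5 and Ier3 were named after their values were seen. Birc5 (0.1 and 0.09, limma adjusted p = 0.103 and 0.127) passed in neither comparison and Ier3 (0.1 and 0.38, adjusted p = 0.363 and 0.0105) only in OSM-ESCs, a difference between the cytokines that did not pass (adjusted p = 0.224). Icam1 lay on either side of 2-fold (1.04 and 0.99). In OSM-ESCs against LIF-ESCs 0 of the 15 passed limma's adjusted p (6 at an unadjusted p under 0.05), and values ran from -0.21 to 0.29.

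Immediate-early genes, the class to which Junb belongs, and genes known to respond to cell dissociation were counted as well. Against -LIF-ESCs, LIF-ESCs had 3 of 12 such genes called lower and 0 higher, and OSM-ESCs had 4 lower and 1 higher. Btg2 (-1.71 and -1.68), Hspa1a (-1.75 and -1.83) and Hspa1b (-1.81 and -1.48) fell in both. Zfp36 fell by 1.09 and Egr2 rose by 1.02 in OSM-ESCs, and Ier2 was the most abundant at 283 TPM with LIF. As Egr2 (0.334 TPM without cytokine) passed the low-value filter only through the cytokine groups, its call is a description. In OSM-ESCs against LIF-ESCs, 2 of the 12 passed, both lower. Fos stood at 104 ± 1.05 TPM without cytokine, 127 ± 2.32 with LIF and 80.8 ± 1.03 with OSM (SD, n = 2), with a log2 fold change of -0.65 between the cytokines (limma adjusted p = 0.0239). Fosb stood at 20.9 ± 0.642, 38.5 ± 0.0207 and 29 ± 0.787 TPM, with -0.4 (adjusted p = 0.0474). Fos passed in 6 and Fosb in 3 of 15 alternative settings, and neither in a fit without a library (adjusted p of 0.102 to 0.276). Like Socs3, both were lower in OSM-ESCs than with LIF, and their part in the Socs3 value was not tested.

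**Figure D4:**
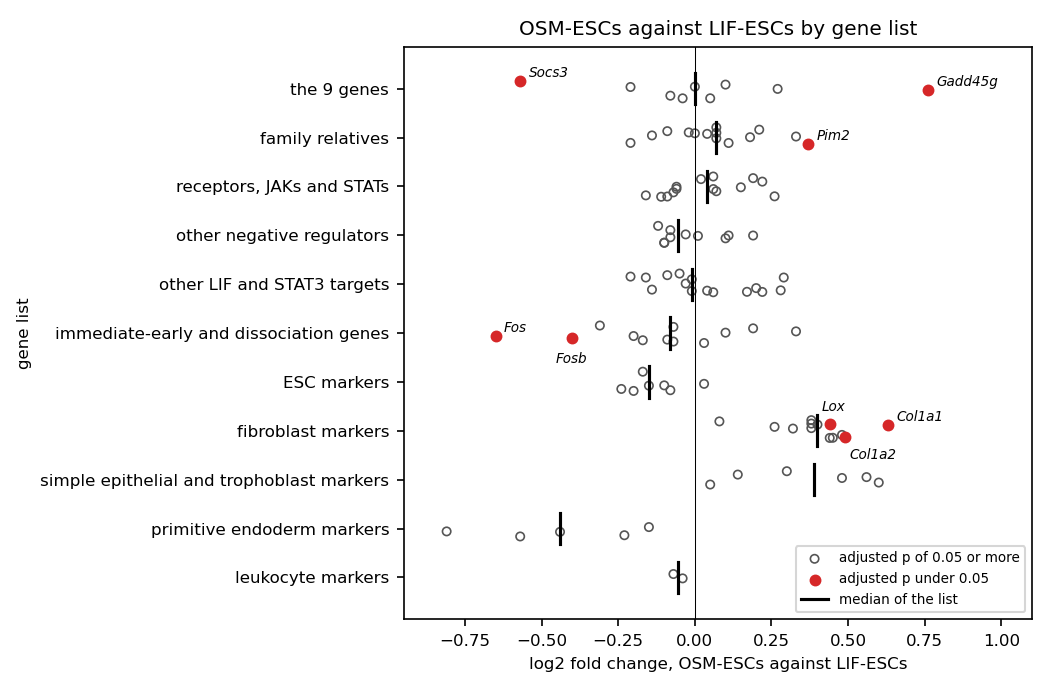
Log2 fold changes in OSM-ESCs against LIF-ESCs (horizontal axis) of the tested genes of each list (vertical axis), with filled points for a limma adjusted p under 0.05, open points for the rest and a bar at each list's median. Socs3 at -0.57 and Gadd45g at 0.76 lie at the ends of their list, Fos at -0.65 and Fosb at -0.4 pass on the low side, and all 13 fibroblast markers lie above 0.

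The gene whose profile over the 6 libraries was most like that of Socs3 was Fosb, at a Euclidean distance of 0.197 on the centered log2(TPM + 1) scale, out of 12466 genes with a mean of at least 5 TPM. Itpk1 (0.259), an inositol phosphate kinase, Eras (0.277), a Ras protein of embryonic stem cells, Tead4 (0.284), a partner of YAP, and Sigirr (0.287), a receptor of the IL-1 family, came next. All 5 were highest in LIF-ESCs and lowest in -LIF-ESCs, as Eras shows with 13.6 and 16.6, 33.5 and 36.0, and 25.3 and 23.4 TPM without cytokine, with LIF and with OSM. As the 5 were chosen by likeness to Socs3 in these libraries, this shared order is not a result. Among the 9 genes Pim3 was the nearest to Socs3, at 0.376, and Socs1 the farthest, at 3.13.

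Markers of other cells also differed between the groups. The summed TPM of 13 fibroblast markers was 51.7 and 46.7 without cytokine, 383 and 382 with LIF and 541 and 530 with OSM, and 12 of 13 were called higher with either cytokine. In OSM-ESCs against LIF-ESCs all 13 had positive values and 3 passed, Col1a1 at 0.63, Col1a2 at 0.49 and Lox at 0.44. The pass was lost for all 3 in each of the 6 fits without a library (limma adjusted p of 0.102 to 0.272), in the fit of the 2 groups (0.088) and with a replicate block (0.134 to 0.139). Simple epithelial and trophoblast markers, of which 6 of 7 were tested, summed to 2370 and 2350 TPM in -LIF-ESCs and to 57.1 to 73.6 TPM in the other 4 libraries, and 5 of 6 were called lower with either cytokine. Primitive endoderm markers summed to 7.57 and 9.03, 23.8 and 23.4, and 16.9 and 16.8 TPM without cytokine, with LIF and with OSM, and 3 of 5 were called higher with either cytokine. Several markers of these 3 lists, such as Lox, Krt7 and Sox7, passed the low-value filter only through the groups where they were high. The counts of calls against -LIF-ESCs are therefore descriptions. Of 4 leukocyte markers in the table, 2 (Adgre1 and Tyrobp) were at 0 in the libraries of -LIF-ESCs and LIF-ESCs. The other 2 were present in all groups. Cd68 stood at 40, 15.9 and 15.1 TPM and Csf1r at 6.29, 6.61 and 6.4 TPM without cytokine, with LIF and with OSM. None of the fibroblast, epithelial or endoderm markers in the table was at 0 in any library, though Dcn (0.0562 TPM) and Lox (0.0814 TPM) of the fibroblast list were near 0 without cytokine. By mean TPM, Socs1 and Cish were highest in -LIF-ESCs, as the epithelial sum was. Gadd45g and Pim1 were highest in OSM-ESCs and lowest in -LIF-ESCs, as the fibroblast sum was. Socs2, Socs3, Pim3, Bcl3 and Junb were highest in LIF-ESCs and lowest in -LIF-ESCs, as both the endoderm sum and the sum of the ESC markers were. Each of the 9 genes shared its order with a marker sum, but 3 groups allow few orders, so this is a description. Between LIF-ESCs and OSM-ESCs only Socs3 and Gadd45g passed, and Cish and Junb overlapped. The order of these 2 groups is therefore not settled for the other genes. The part of these cells in the values of the 9 genes was not tested.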

How the data were processed

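RNA-seq of mESCs (poly-A RNA, NEBNext Ultra kit) was analysed from 6 libraries, 2 in each of 3 groups. The authors aligned reads to mm10 with HISAT2 and counted them with featureCounts, after Trimmomatic per the submitters' processing notes, and deposited TPM values for 28584 symbols. Tool versions, the annotation and the strand setting are not given in the sources used here. The authors tested read counts with DESeq2. As the deposited values are TPM, limma 3.58.1 (R 4.3.3; lmFit, eBayes with trend) was used instead on log2(TPM + 1), for the 18556 genes that reached 1 TPM in 2 or more libraries, all groups in 1 fit, with Benjamini-Hochberg adjustment over these genes. A call needed an adjusted p under 0.05 together with a log2 fold change of 1 or more in either direction. The table held 0 columns of other samples. Exon lengths from GENCODE M21 matched 99.4% of symbols and gave whole reads and the depth, 20712941 to 28994419 reads. Pim1 was not whole in all libraries. Promoter windows came from RefSeq (GRCm38.p6). The code was tested on simulated data. Figures were drawn with matplotlib 3.10.9 in Python 3.11.15 (pandas 2.3.3, numpy 2.4.6).

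The 9 genes and the gene lists were chosen with earlier results of these data known. Named are the 9 genes and, from each list of relatives, receptors, JAKs and STATs, regulators, targets and immediate-early genes, those called in a comparison or with an adjusted p under 0.05 in OSM-ESCs against LIF-ESCs, the gene with the highest TPM, and the 5 genes nearest to Socs3. In the list of receptors, JAKs and STATs, 1 gene is not reported here and is left out of the counts. Alternatives were a pseudocount of 0.1, no filter, a filter of 5 TPM, no variance trend, a fit of the 2 groups compared, a replicate block, median-ratio rescaling, removal of 37 mitochondrial genes, other call rules, limma's voom on recovered reads and each library left out. Replicate numbers were not taken as pairs.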

Additional observations from a re-analysis of the deposited data

Results flagged for a closer look

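By the test of the difference itself, 2 of the 9 genes passed in OSM-ESCs against LIF-ESCs. Socs3 had a log2 fold change of -0.57 in OSM-ESCs against LIF-ESCs (limma adjusted p = 0.03), with both OSM libraries below both LIF libraries. Gadd45g had 0.76 (limma adjusted p = 0.0296), with both OSM libraries above both LIF libraries. Each passed in 6 of 15 alternative settings, and the pass was lost in the fit of the 2 groups, with a replicate block, without a trend of the variance and in each of the 6 fits without a library (limma adjusted p of 0.102 to 0.25 for Socs3 and 0.102 to 0.239 for Gadd45g).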

How the results depend on the processing

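Of the single values under the alternatives, 432 kept direction and side of the call, 12 gained and 6 lost a call, and 3 changed sign, all in OSM-ESCs against LIF-ESCs. These were Junb (0), at 0.04 without LIF-ESCs replicate 1 and 0.01 without OSM-ESCs replicate 2, with a range from -0.05 to 0.04 when a library was left out, and Cish (0.05), at -0.06 without LIF-ESCs replicate 2, with a range from -0.06 to 0.16. The count of the 9 genes called in LIF-ESCs against -LIF-ESCs (5) became 9 by adjusted p alone and 3 with voom, which could test 8 of them, without Pim1, and 4 to 5 when a library was left out. In OSM-ESCs against -LIF-ESCs (5) it became 8 by adjusted p alone, 3 after median-ratio rescaling and 5 when any library was left out. In OSM-ESCs against LIF-ESCs (0 by limma, 5 at an unadjusted p under 0.05) it became 2 by adjusted p alone, 1 with a 1.5-fold change and an unadjusted p under 0.05, and 0 when any library was left out. The causes were not tested. A filter of 5 TPM drops Cish.

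Over all genes, calls in OSM-ESCs against LIF-ESCs numbered 15, against 6 at a pseudocount of 0.1, 46 with voom, 110 by adjusted p alone, 346 with a 1.5-fold change and an unadjusted p under 0.05, 0 in the fit of the 2 groups (2659 genes at an unadjusted p under 0.05), and 0 to 1 when a library was left out (1999 to 2677 genes). By adjusted p alone the calls against -LIF-ESCs rose from 3972 to 12631 for LIF and from 4089 to 12680 for OSM, and to 7901 and 7963 at an unadjusted p and 1.5-fold. Rescaling changed the split of higher and lower calls from 2470 and 1502 to 1945 and 1910 for LIF, and from 2630 and 1459 to 2059 and 1907 for OSM.

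Same-numbered libraries did not deviate together (r of -0.0433, -0.0234 and 0.0265 across genes), so the numbers were not read as pairs. With the replicate block, 5, 5 and 0 of the 9 genes were called in the 3 comparisons, and 0 genes in all in OSM-ESCs against LIF-ESCs by limma (2477 at an unadjusted p under 0.05). Socs3 and Gadd45g then lost their adjusted p between the cytokines.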
